A study of Mus musculus with 39 samples.

Results

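The transcriptome of injured mouse muscle lacking gamma-delta T cells was described 3 days after injury, across every gene with enough reads to test. A gene was taken when at least 3 of the 6 day 3 libraries held 10 or more of its counts, and 13648 of the 55011 annotated genes met that rule. The tested libraries came from Tcrd-DTR mice, which carry the diphtheria toxin receptor under the T cell receptor delta gene so that the toxin removes gamma-delta T cells (called DTR below). Their controls were wild-type mice (WT). Mice of both genotypes received intraperitoneal diphtheria toxin and a cardiotoxin injury of the hindlimb, and the tibialis anterior was homogenised whole on day 3, with 3 samples per genotype that the study calls independent biological replicates. Toxin dose, its timing, age and sex are not given in the labels, and the toxin was given to the whole animal, not to muscle alone. The series, 39 libraries in all, holds 23 of this time course (days 1, 3, 7 and 14), sorted Vgamma6 T cells of colon and muscle, day 7 muscle after recombinant IL-17A or saline, and sorted satellite cells.

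Cardiotoxin kills muscle fibres while sparing much of the stem cell pool. Infiltrating phagocytes clear the debris, satellite cells divide, and around day 3 their progeny begin to differentiate and fuse. Gamma-delta T cells of the Vgamma6 type are tissue-resident lymphocytes known as an early source of IL-17A. Interferon-stimulated genes are switched on through STAT and IRF transcription factors when a cell receives an interferon signal, and their products restrict viruses, present antigen or damp the signal itself.

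The DTR libraries held 4554928, 4546489 and 6599665 counts, against 6502310, 4169533 and 3579023 in WT libraries. Values below are in CPM, counts relative to library totals that were scaled by TMM, a correction for differences in RNA composition. Counts on the mitochondrial genome made up 1.96 to 2.75% of each library. Olfactory and vomeronasal receptor genes, which muscle is not known to use, stand in here for stray reads. They took 315.4 to 1524.6 CPM, relative to all counts without TMM, with the 2 genotypes overlapping. The tissue matched its label: the fibre enzyme gene Ckm stood at 2540 CPM or more, and the myoblast factor gene Myog at 131 CPM or more, in every library.

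The depletion was visible in the receptor genes themselves, although none had enough reads to be among the tested genes. Trdc, the constant segment of the receptor delta chain (mm10 chr14:54142851-54148868), had 0 counts in each DTR library, which allows up to 3 counts per library, and 5, 4 and 5 counts in WT libraries. Over 6 gamma-delta receptor genes, the summed level was 1.1, 1.1 and 0 CPM in DTR libraries, against 4.15, 4.32 and 5.31 CPM in WT libraries. The groups did not overlap, but 3 against 3 libraries cannot give an exact two-sided permutation p below 0.1, which is the value found. Trgc1 had 2 counts in all DTR libraries and 27 in WT, Trgv6 0 and 8, Trgc2 5 and 9, and Trgc4 0 in both. Il17a, the cytokine gene of these cells, had 3 counts in DTR and 0 in WT libraries, and Il17f 12 and 7, so that neither was measurable at this depth in whole muscle. In bulk tissue, fewer cells of a type cannot be told apart from less RNA per cell.

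Cd163l1 is given as a description, since it met the count rule only through the WT libraries and was chosen after its values were seen. This scavenger receptor gene stood at 9552 ± 199 CPM in the sorted Vgamma6 cells of injured muscle (SD, n = 3). It had 5, 2 and 0 counts in DTR libraries, against 49, 47 and 12 in WT libraries. All DTR libraries lay below all WT libraries. Sox13, a transcription factor gene of the same cells, had a fitted log2 change of -0.29 ± 0.43 (SE, as for every fitted change below) with overlapping groups. The gamma-delta T cell list had 2 tested members and a median of 0.10, which was -0.52 with no filter on low counts and -0.06 without DTR replicate 2, so it has no settled sign. A further set held 129 tested genes with 50 CPM or more in sorted Vgamma6 cells. Each was at least 50-fold higher there than in WT muscle of the other days. Of the 129 genes, 88 had a log2 change below 0, against 50.6% of all genes, with a median of -0.15. Cd163l1 is among them, and members that met the count rule through the WT libraries alone were not set apart. The count is therefore a description only. The set holds genes that other leukocytes also use, the general macrophage list stood at -0.27, and the part of other leukocytes was not tested.

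Across all 13648 genes, none passed an adjusted p of 0.05 in edgeR's quasi-likelihood test, and the smallest adjusted p was 0.183. An unadjusted p under 0.05 was reached by 654 genes, which is 4.79% of those tested; 425 were higher in DTR muscle (3.11%) and 229 lower (1.68%). DESeq2 called 2 genes, Kcnj12 and Tbx15, both higher in DTR muscle. All DTR libraries lay above all WT libraries for 768 genes (5.63%) and below them for 852 (6.24%). The median log2 change was -0.0045, and 50.6% of genes lay below 0. The median 95% interval reached 0.636 to either side on the log2 scale, a 1.55-fold difference, with no adjustment for the number of genes. Smaller changes were mostly beyond what these libraries can show, and larger ones could go uncalled too. A log2 change above 1 in size was found for 479 genes, none of them called. With no gene called at day 3, no called gene could be followed into the other comparisons, and the gene groups below are described by their values.

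**Figure D1:**
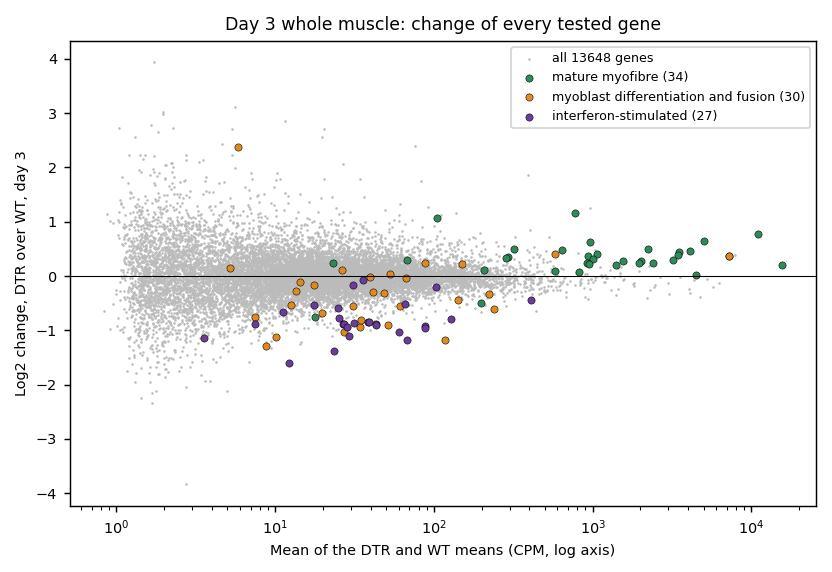
Log2 change of DTR over WT muscle at day 3 (vertical axis) against the mean CPM of both groups (log axis) for the 13648 tested genes in grey, with 3 gene lists in colour. The interferon-stimulated genes (purple) all sit below 0, while 32 of the 34 mature fibre genes (green) sit above it.

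Interferon-stimulated genes were lower in DTR muscle as a group. Of the 28 listed genes, 27 were tested, and the log2 change was below 0 for 27 of them, against 50.6% of all genes. The median was -0.87, against -0.0045 over all genes, and single changes ran between -1.60 and -0.08. All DTR libraries lay below all WT libraries for 19 of the 27 genes, against 6.24% of all genes, and 16 had an unadjusted p under 0.05 on the lower side, against 1.68%. None passed the adjusted threshold. Summed over the list, the level was 1306, 1074 and 1096 CPM in DTR libraries, against 1850, 2072 and 1647 CPM in WT libraries. Leaving out each day 3 library in turn moved the list's median between -0.99 and -0.73.

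Rsad2 (viperin), which blocks the replication of many viruses, was at 47.0, 28.6 and 42.3 CPM in DTR libraries, against 65.5, 100 and 76.1 CPM in WT libraries. Its log2 change was -1.03 ± 0.28, with an adjusted p of 0.49 by edgeR's quasi-likelihood test. Usp18, the protease that removes ISG15 from proteins and damps receptor signalling, was at 22.2, 17.8 and 15.6 CPM in DTR libraries, against 32.1, 43.5 and 43.5 CPM in WT libraries. For both genes every DTR library lay below every WT library. These were the 2 genes of the list with the smallest p.

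The following members were chosen after their values were seen, to show effectors, signal carriers and a secreted product. Isg15, the ubiquitin-like protein attached to targets during the response, was at 17.9, 9.69 and 11.2 CPM in DTR libraries, against 24.6, 43.0 and 34.1 CPM in WT libraries. Bst2 (tetherin), which holds budding virus at the cell surface, was at 102, 90.0 and 88.8 CPM in DTR libraries, against 149, 167 and 171 CPM in WT libraries. Neither gene's groups overlapped. The transcription factor gene Stat2 was at 29.8, 28.3 and 24.6 CPM in DTR libraries, against 49.6, 59.9 and 38.8 CPM in WT libraries. Irf7, the factor that amplifies type I interferon production, was at 81.2, 47.3 and 54.3 CPM in DTR libraries, against 120, 135 and 91.3 CPM in WT libraries. Both signal carriers also showed no overlap between genotypes. Cxcl10, a chemokine that draws CXCR3-bearing lymphocytes, had the lowest log2 change of the list at -1.60 ± 0.50, yet its groups touched, with 10.3, 4.20 and 3.78 CPM in DTR libraries, against 10.1, 31.3 and 14.2 CPM in WT libraries. The immunoproteasome genes Psmb8 and Psmb9 were close to 0 on the log2 scale, at -0.19 ± 0.24 and -0.08 ± 0.30, as was the GTPase gene Gbp2 at -0.16 ± 0.27. Ifit and Oas family members have close paralogues, and how the authors' counting split shared reads is not given in the sources used here.

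**Figure D2:**
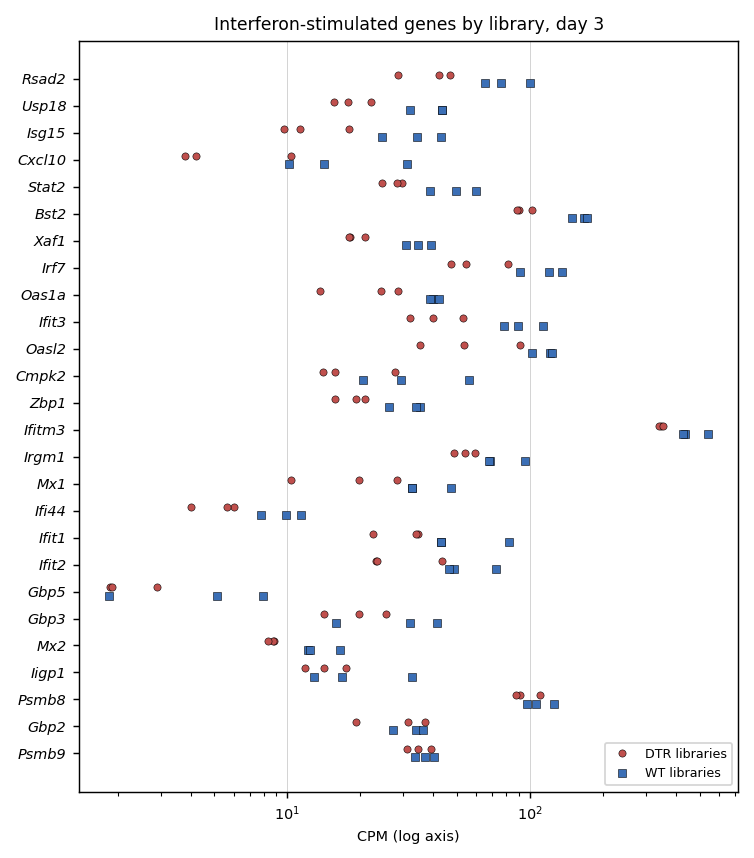
CPM (log axis) of 26 interferon-stimulated genes in each day 3 library, ordered by p with the smallest at the top; red circles are DTR libraries and blue squares WT libraries. For 18 of these genes the 3 circles all lie left of the 3 squares, and the overlap is greatest at the bottom, in Psmb8, Gbp2 and Psmb9.

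The interferon genes themselves were hardly read. Over 17 type I and type II interferon genes, 15 counts fell in the DTR libraries and 14 in the WT libraries; Ifnb1 and Ifng had 0 in all 6. At this depth a source of interferon was not detectable in either genotype. Among 15 tested genes for interferon receptors, nucleic acid sensors and signal carriers outside the list, chosen after the values above were seen, the median log2 change was -0.16 and 10 lay below 0. The receptor genes were near level, Ifnar1 at 0.09 ± 0.20 and Ifnar2 at -0.25 ± 0.21. Irf9, the DNA-binding partner of STAT2, had 273, 193 and 264 counts in DTR libraries, against 426, 281 and 248 counts in WT libraries. Scaled to library size, it lay lower in every DTR library than in any WT library, with a log2 change of -0.48 ± 0.26. Such a separation was found for 3 of the 15 genes on the lower side and 1 on the higher. Over all genes the shares were 6.24% and 5.63%. The higher gene was the signal carrier Jak1, at 0.28 ± 0.16, and Tyk2 stood at 0.41 ± 0.25 with overlapping groups.

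The promoter stretches below are shown because many genes of this group carry the sequence bound by complexes that hold STAT2 and IRF9, the interferon-stimulated response element. RefSeq promoter windows (GRCm38.p6) were matched by symbol for 21 of the 27 genes, and the 250 bases before the start were searched on both strands for GAAA, any 2 bases and a second GAAA. It was found for 12 of the 21 genes (57.1%), against 341 of the 10367 tested genes with a window (3.29%) and 2.98% of all 32851 windows of that length. Letters alone do not show that a factor binds. Each stretch is 100 bases, 5′ to 3′ on the strand of its gene, with the matches in capitals; in Isg15 and Bst2, neighbouring matches overlap.
Rsad2, chr12:26456518-26456617, minus strand: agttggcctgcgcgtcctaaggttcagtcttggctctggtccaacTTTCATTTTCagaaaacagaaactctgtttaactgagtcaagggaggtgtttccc
Isg15, chr4:156200830-156200929, minus strand: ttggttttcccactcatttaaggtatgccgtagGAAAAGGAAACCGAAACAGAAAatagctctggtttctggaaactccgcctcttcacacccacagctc
Bst2, chr8:71537542-71537641, minus strand: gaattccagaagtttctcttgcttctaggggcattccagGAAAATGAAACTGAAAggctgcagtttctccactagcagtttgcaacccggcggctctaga
Stat2, chr10:128270248-128270347, plus strand: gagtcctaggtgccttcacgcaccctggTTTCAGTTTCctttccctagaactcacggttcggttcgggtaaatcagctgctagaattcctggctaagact
Cxcl10, chr5:92349040-92349139, minus strand: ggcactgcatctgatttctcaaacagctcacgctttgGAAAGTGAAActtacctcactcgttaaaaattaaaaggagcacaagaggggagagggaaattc

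The lower interferon group at day 3 did not extend to every day. Summed over the list, the mean level at day 1 was 773 ± 342 CPM in DTR and 760 ± 83.2 CPM in WT muscle (SD, n = 3 each). At day 3 it was 1159 ± 128 CPM in DTR and 1856 ± 213 CPM in WT muscle (n = 3 each). At day 7 the 2 DTR libraries stood at 1090 and 1324 CPM, against 836, 743 and 539 CPM in WT muscle. By day 14 the mean was 374 ± 76.5 CPM in DTR and 350 ± 27.9 CPM in WT muscle (n = 3 each). The WT level was thus highest of the 4 days at day 3, while the DTR level at day 3 was close to its level at day 7. The list's median log2 change was -0.02 at day 1, -0.87 at day 3, 0.83 at day 7 and 0.06 at day 14, against 0.0417 at day 7 over all genes. At day 1, 14 of the 27 genes lay below 0, against 50.8% of all genes. At day 7, 26 lay above 0 and 1 passed the adjusted threshold, against 3.02% of all genes. Trdc, summed over the libraries of a group, had 7 counts in DTR and 8 in WT muscle at day 1. It had 0 and 11 at day 7, and 2 and 10 at day 14. Trgc2 had 7 and 3 counts at day 1, and Trgc1 0 and 2. The depletion seen in Trdc at day 3 was thus not visible at day 1, and its part in the day 1 values was not tested.

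The difference between the day 3 and day 7 changes was tested for every gene in the same fit. It passed an adjusted p of 0.05 for 8 of the 27 interferon-stimulated genes, each with the lower change at day 3, against 0.256% of all genes in that direction. These were Rsad2, Usp18, Cxcl10, Stat2, Bst2, Xaf1, Oas1a and Ifitm3. For Rsad2 the difference was -2.06 ± 0.42 on the log2 scale, with an adjusted p of 0.015 by edgeR's quasi-likelihood test. That call was kept in 10 of 11 fits that each left out 1 library of the 2 days. For Stat2, the change was -0.85 at day 3 and 1.07 at day 7, a difference of -1.92 ± 0.41 with an adjusted p of 0.015, kept in 9 of 11 such fits. These calls rest on few day 7 libraries: without DTR replicate 2 of day 7 the count was 0, and without WT replicate 3 of day 7 it was 1. It was 3 without day 3 DTR replicate 2 or replicate 3, 5 without day 3 WT replicate 1 and 4 without day 3 WT replicate 2. Stray olfactory reads were lower in the day 7 DTR libraries (146.3 and 92.1 CPM) than in the WT libraries (266.7 to 1382.8 CPM). The part of this difference in the calls was not tested. In satellite cells sorted on day 1, 20 of the 21 tested genes of the list had a log2 change above 0 in DTR cells, with a median of 0.80 and none called. Over all genes tested in those cells, 47.2% lay below 0, the median was 0.0181 and none was called. In day 7 muscle given recombinant IL-17A, the median was -0.61 relative to saline (2 libraries each), with 18 of 27 genes below 0, 5 called lower and 4 called higher, against 16.1% and 18.1% of all genes.

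**Figure D3:**
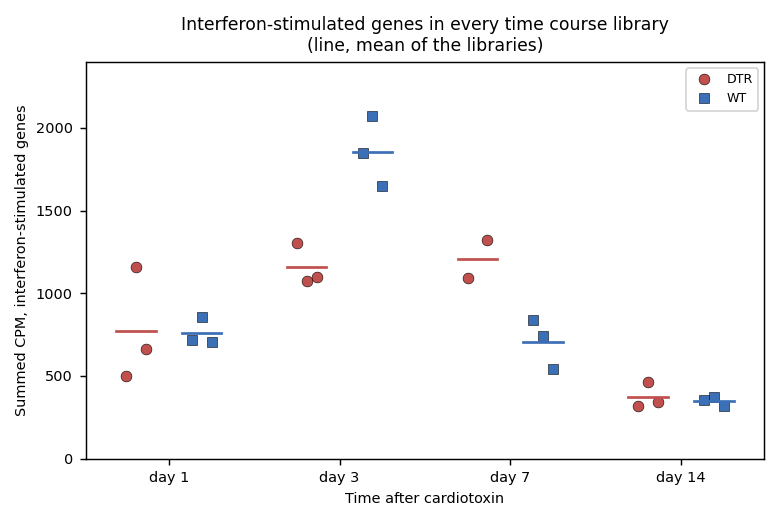
Summed CPM of the interferon-stimulated genes in each whole-muscle library of days 1, 3, 7 and 14, DTR (red circles) beside WT (blue squares), with lines at the means. At day 3 the DTR libraries (1074 to 1306) lie below the WT libraries (1647 to 2072), and at day 7 the 2 DTR libraries lie above the 3 WT libraries.

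Leukocyte markers were set beside these values. The summed level of 15 general macrophage genes was 7946, 7532 and 9117 CPM in DTR libraries, against 12090, 9215 and 8498 CPM in WT libraries, with 13 of 15 genes below 0 and a median of -0.27. The groups overlapped. Repair macrophage genes had a median of -0.13 (14 of 24 below 0), and inflammatory monocyte and macrophage genes one of -0.09 (10 of 17 below 0). Dendritic cell and MHC class II genes had a median of -0.20, with 13 of 15 below 0. The part of macrophage number in the interferon group was not tested. Within the macrophage lists, single genes went both ways: the haemoglobin scavenger receptor gene Cd163 was at 40.1, 39.6 and 43.1 CPM in DTR libraries, against 25.4, 10.6 and 18 CPM in WT libraries, while Nos2, the inducible nitric oxide synthase of inflammatory macrophages, was at 2.47, 4.84 and 2.00 CPM in DTR libraries, against 8.08, 8.44 and 6.22 CPM in WT libraries. Neither gene's groups overlapped, and neither passed the adjusted threshold. Spi1, the myeloid factor PU.1, and C1qc, a complement chain made by macrophages, both lay above the WT range, with log2 changes of 0.87 ± 0.39 and 0.70 ± 0.35. Ptprc, the pan-leukocyte gene CD45, was at -0.51 ± 0.35 with overlapping groups. Ciita and Xcr1, genes of antigen-presenting cells, were at -0.52 ± 0.45 and -1.06 ± 0.80.

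Other leukocytes were thinly read. The 10 tested neutrophil genes had a median of -0.21 with 8 below 0, Hdc at -0.92 ± 0.67 and Csf3r at -0.44 ± 0.34. Only 3 of 10 natural killer and cytotoxic genes (median -0.83; Nkg7 -1.79 ± 0.89, Ccl5 -0.83 ± 0.54), 2 of 14 alpha-beta T cell genes (Cd4 -1.0 ± 0.73, Cd28 -0.28 ± 0.59) and 2 of 10 B cell genes (Ighm -0.18 ± 0.30, Cd79b 0.16 ± 0.54) had enough reads. The 6 tested eosinophil, basophil and mast cell genes had a median of 0.99, but the mast cell protease genes Mcpt4 and Cma1 overlapped between genotypes. Mcpt4, for one, was at 5.24, 7.59 and 0.667 CPM in DTR libraries, against 1.02, 0.496 and 1.5 CPM in WT libraries. Erythrocyte genes had a median of 0.06 over 5 genes (Alas2 0.31 ± 0.64, Hba-a2 0.06 ± 0.54).

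Genes of newly forming fibres lay mostly lower in DTR muscle. Of 30 tested myoblast differentiation and fusion genes, 22 lay below 0 and the median was -0.32. All DTR libraries lay below all WT libraries for 13 of them and above for 0, against 6.24% and 5.63% of all genes. An unadjusted p under 0.05 on the lower side was reached by 8 genes, against 1.68% of all genes, and none was called. The median stayed between -0.41 and -0.31 when each library was left out in turn. The summed level of the list did not follow its median. It was 8450, 11510 and 10640 CPM in DTR libraries, against 4373, 8367 and 13140 CPM in WT libraries. These sums overlapped, with means of 10200 CPM in DTR and 8627 CPM in WT muscle.

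Mymk (myomaker, mm10 chr2:27061636-27072179), a membrane protein required for myoblasts to fuse, was at 25.7, 26.3 and 18 CPM in DTR libraries, against 40.9, 45.2 and 48.4 CPM in WT libraries. Its log2 change was -0.94 ± 0.30, with an adjusted p of 0.54 by edgeR's quasi-likelihood test. Lrrn1, a leucine-rich repeat membrane protein gene, was at 4.16, 6.62 and 8.0 CPM in DTR libraries, against 10.4, 15.1 and 16.3 CPM in WT libraries. Myog, the factor that starts terminal differentiation, was at 250, 131 and 192 CPM in DTR libraries, against 267, 320 and 283 CPM in WT libraries. Myh3, the embryonic myosin heavy chain gene, was at 16.5, 27.8 and 9.44 CPM in DTR libraries, against 32.9, 35.4 and 40.5 CPM in WT libraries. None of these groups overlapped. A further 3 were chosen after their values were seen. Mymx (myomerger, mm10 chr17:45600971-45602102), the second fusion protein gene, was at 6.47, 4.36 and 4.44 CPM in DTR libraries, against 10.9, 13.4 and 12.9 CPM in WT libraries. The embryonic sarcomere genes Myl4 and Tnnt2 were at 37.9, 34.6 and 35.0 and at 26.2, 27.3 and 22.1 CPM in DTR libraries, against 57.9, 62.5 and 80.2 and 42.2, 45.0 and 44.6 CPM in WT libraries. List members that adult fibres also use in quantity did not follow: Ckm was at 0.37 ± 0.36, Actn2 at 0.42 ± 0.33 and the slow myosin gene Myh7 at 2.38 ± 1.00, all with overlapping groups.

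Upstream of these genes, satellite cell and myoblast genes had a median of -0.22 with 13 of 16 below 0. Myod1, the myoblast determination factor, was at 126, 119 and 151 CPM in DTR libraries, against 191, 185 and 187 CPM in WT libraries, a log2 change of -0.51 ± 0.21 with no overlap. Heyl, a Notch effector, was at 10.6, 6.62 and 10.7 CPM in DTR libraries, against 15.2, 11.2 and 18.6 CPM in WT libraries. Pax7, which marks the stem cells themselves, was at 2.77, 7.75 and 5.33 CPM in DTR libraries, against 4.50, 7.61 and 5.14 CPM in WT libraries, and the groups overlapped. DNA replication genes had a median of -0.26 with 27 of 30 below 0 (Rrm2 -0.42 ± 0.23), and mitosis genes one of -0.18 with 27 of 32 below 0 (Plk1 -0.65 ± 0.36, Ube2c -0.40 ± 0.23). Cell division genes are used by leukocytes as well as myoblasts. At other days the fusion list's median was 0.16 at day 1, 0.37 at day 7 and 0.59 at day 14. The day 3 change differed from the day 7 change for Mymx and Cdkn1c, and from the day 14 change for Mymk, Tnnt2 and Cdkn1a, each lower at day 3 (adjusted p between 0.013 and 0.048 by edgeR's quasi-likelihood test). Of all genes, 0.256% were called lower at day 3 against day 7, and 0.0806% against day 14. With each library of the 2 days left out in turn, the calls of Mymk and Cdkn1a were kept in 9 of 12 fits, those of Mymx and Cdkn1c in 4 and 3 of 11, and that of Tnnt2 in 1 of 12. Mymk and Cdkn1a lost theirs without day 14 WT replicate 2 or DTR replicate 3, and without a day 3 DTR replicate (3 for Mymk, 2 for Cdkn1a).

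The promoters of 2 genes of this group are shown because both hold the E-box CAGCTG, a palindrome of the kind that MYOD and myogenin bind. Chrng and Chrna1 encode the embryonic gamma and the alpha subunit of the muscle acetylcholine receptor, and each lay lower in every DTR library, with log2 changes of -0.69 ± 0.41 and -0.44 ± 0.27; they were chosen after their values were seen. CAGCTG stood in the 250 bases before the start for 6 of the 22 differentiation genes with a RefSeq window (27.3%), for 14 of 27 mature fibre genes (51.9%) and for 14.7% of the tested genes with a window. Matches are in capitals, on 100 bases of GRCm38.p6, 5′ to 3′ on the strand of the gene.
Chrng, chr1:87205634-87205733, plus strand: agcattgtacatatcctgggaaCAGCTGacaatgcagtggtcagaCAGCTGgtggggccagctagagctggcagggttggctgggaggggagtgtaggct
Chrna1, chr2:73580339-73580438, minus strand: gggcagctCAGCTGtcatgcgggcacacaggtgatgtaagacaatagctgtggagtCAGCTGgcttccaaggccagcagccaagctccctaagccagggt

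Mature fibre genes did not move with them. Of 34 genes, 32 lay above 0, with a median of 0.31, but all DTR libraries lay above all WT libraries for 2 of them (5.63% of all genes). Their summed level was 75500, 105300 and 88990 CPM in DTR libraries, against 29870, 65160 and 111500 CPM in WT libraries. WT replicate 1 was the lowest and WT replicate 3 the highest of the 6, so the WT libraries span the DTR libraries. Leaving out WT replicate 1 moved the median to -0.05 and leaving out WT replicate 3 moved it to 0.89. Mybpc1, the slow-type myosin-binding protein gene, was at 807, 1120 and 1260 CPM in DTR libraries, against 224, 489 and 724 CPM in WT libraries. Xirp2, an actin-binding protein gene of the fibre, was at 390, 364 and 364 CPM in DTR libraries, against 194, 259 and 339 CPM in WT libraries. Respiratory chain genes (median 0.07, 20 of 29 above 0; Cox8b 0.42 ± 0.28, Cox7a1 -0.42 ± 0.30) and glycolysis genes (median 0.11, 14 of 20 above 0; Pfkm 0.48 ± 0.31, Slc2a1 -0.55 ± 0.29) are used heavily by the same fibres. The part of this spread between libraries in any fibre gene's value was not tested.

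**Figure D4:**
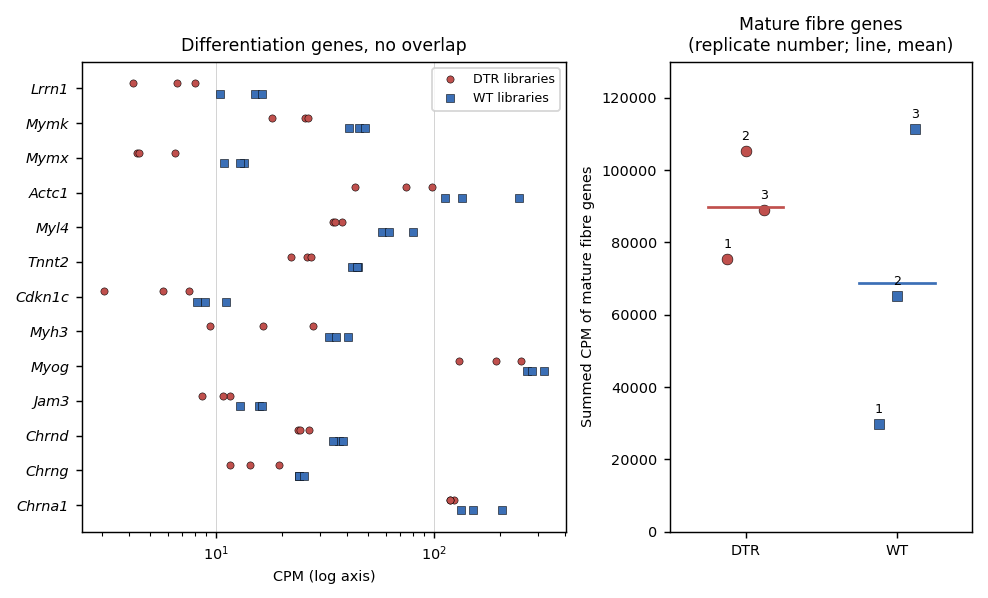
Left, CPM (log axis) of the 13 differentiation and fusion genes whose day 3 groups did not overlap, DTR libraries as red circles and WT libraries as blue squares. Right, summed CPM of 34 mature fibre genes in each library with its replicate number; the WT libraries run between 29870 and 111500 and span the DTR libraries.

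The single genes with the smallest p were mostly higher in DTR muscle, and all were chosen after their values were seen. Tbx15 (mm10 chr3:99240381-99354259), a transcription factor of glycolytic fibres and of mesenchymal cells, was at 72.1, 69.8 and 63.8 CPM in DTR libraries, against 19.7, 29.4 and 39.6 CPM in WT libraries. Its log2 change was 1.22 ± 0.23, with an adjusted p of 0.183 by edgeR's quasi-likelihood test. Its day 3 change also exceeded its day 7 change, by 1.37 to 1.86 when each library of the 2 days was left out, a call lost without day 3 WT replicate 1 or day 7 DTR replicate 2. Kcnj12, an inward-rectifier potassium channel gene, was at 3.08, 11.6 and 12.8 CPM in DTR libraries, against 0.511, 1.32 and 2.79 CPM in WT libraries. Carns1, the enzyme gene of carnosine synthesis in fibres, was at 21.1, 20 and 16 CPM in DTR libraries, against 5.93, 7.11 and 12.9 CPM in WT libraries. Timp4, a metalloproteinase inhibitor gene, was at 19.6, 11 and 16.3 CPM in DTR libraries, against 3.48, 2.98 and 7.72 CPM in WT libraries. WT replicate 3, which held the highest level of mature fibre genes, was the highest WT library for each of these 4 genes. Of the genes named next, only Timm29 shared this. The part of fibre content in these values was not tested. Others among the 12 with the smallest p were Lingo3, Tmem100, Klf15, Timm29, Slc7a10, Col6a6 and Kcnma1, all higher in DTR muscle, with log2 changes between 1.46 and 3.94. Slc7a10 and Col6a6 were below 4 CPM in every library. Both met the count rule only through the DTR libraries, where they are high, so their direction is given as a description.

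Glucocorticoids are stress hormones that act on muscle through hormone-responsive transcription factors. Klf15, a glucocorticoid-induced regulator of muscle lipid and amino acid use (mm10 chr6:90462576-90475238), was at 9.56, 7.59 and 9.67 CPM in DTR libraries, against 1.43, 3.31 and 2.14 CPM in WT libraries. Its log2 change was 1.99 ± 0.50 at day 3, and its difference from the day 7 change was 3.10 ± 0.73, with an adjusted p of 0.028 by edgeR's quasi-likelihood test. Klf9, another hormone-responsive factor, was at 21.4, 24.9 and 30.7 CPM in DTR libraries, against 11.1, 16.2 and 19.5 CPM in WT libraries. The glucocorticoid and atrophy list went both ways, with a median of 0.25, 11 of 18 genes above 0 and 7 below. An unadjusted p under 0.05 was reached by 4 higher and 2 lower genes, against 3.11% and 1.68% of all genes. Among 19 circadian clock genes 16 lay above 0, with a median of 0.35, against 49.4% of all genes above 0. The median deviation of the clock genes from their mean over the 6 libraries was 0.13, 0.27 and 0.16 in DTR libraries, against -0.50, -0.04 and 0.17 in WT libraries, on the log2 scale. WT replicate 3 thus stood above DTR replicates 1 and 3. The mature fibre genes had the same order among the WT libraries, at -1.31, -0.13 and 0.69, and the part of fibre content was not tested. The clock repressor gene Cry2 was at 22.5, 32.1 and 33.2 CPM in DTR libraries, against 10.5, 14.6 and 21.0 CPM in WT libraries, and Per1 at 36.7, 40.5 and 62.7 CPM in DTR libraries, against 22.5, 26.0 and 25.7 CPM in WT libraries. Both differed from their day 7 change, by 1.58 ± 0.40 for Cry2 and 2.17 ± 0.51 for Per1 (adjusted p of 0.039 and 0.031 by the same test). With each library of days 3 and 7 left out in turn, the call was kept in 6 of 11 fits for Klf15, in 4 for Cry2 and in 5 for Per1; none was kept without day 7 DTR replicate 2, day 7 WT replicate 3 or day 3 WT replicate 1. The time of day of tissue collection is not given in the labels, and its part was not tested.

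Fibro-adipogenic progenitors are the connective tissue cells that support regenerating fibres. Of 17 fibro-adipogenic progenitor and fibroblast genes, 14 lay above 0, with a median of 0.28, and 5 had all DTR libraries above all WT libraries, against 5.63% of all genes. Gsn (gelsolin) was at 994, 1760 and 1330 CPM in DTR libraries, against 738, 444 and 536 CPM in WT libraries. Dpp4, a surface peptidase of interstitial progenitors, was at 7.40, 17.9 and 9.0 CPM in DTR libraries, against 4.50, 5.29 and 2.36 CPM in WT libraries. Neither gene's groups overlapped. For 5 of 11 adipocyte genes all DTR libraries lay above all WT libraries, against 5.63% of all genes, and the median was 0.25. The complement factor and adipokine gene Cfd was at 83.2, 160 and 138 CPM in DTR libraries, against 48.2, 7.94 and 15 CPM in WT libraries, while the fat droplet gene Plin1 stayed at or below 3.00 CPM in all 6. Complement genes had a median of 0.17 (14 of 18 above 0), led by Cfd and by C3 at 65.5, 131 and 66.1 CPM in DTR libraries, against 48.6, 26.8 and 27.6 CPM in WT libraries. Endothelial genes had a median of 0.13 (12 of 17 above 0); the VEGF receptor gene Flt1 was at 25, 36.0 and 28.8 CPM in DTR libraries, against 10.6, 13.9 and 20.1 CPM in WT libraries, and Plvap overlapped at 0.80 ± 0.36. Collagen genes were level, with a median of -0.02 over 26 genes and Col1a1 at 1280, 1390 and 1010 CPM in DTR libraries, against 1540, 1200 and 1030 CPM in WT libraries. Serpinh1, the collagen chaperone, and Col5a1 were at -0.37 ± 0.21 and -0.39 ± 0.26. Mstn, the secreted inhibitor of muscle growth that fibres make, was at 9.25, 19.9 and 20.4 CPM in DTR libraries, against 1.33, 7.11 and 6.64 CPM in WT libraries, within a TGF-beta and activin list with a median of 0.12 (14 of 21 above 0; Tgfbr2 0.48 ± 0.24).

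Genes that IL-17A is known to switch on in stromal and epithelial cells went both ways at day 3. Of 24 listed IL-17 target genes, 16 were tested, 9 lay below 0 and the median was -0.05, but it was 0.36 without WT replicate 1. That library stood above the other WT libraries over the list. The stromal protease gene Mmp3 was at 11.6, 25.8 and 15.2 CPM in DTR libraries, against 9.41, 6.29 and 4.29 CPM in WT libraries, with no overlap. The neutrophil chemokine gene Cxcl5 was at 1.85, 1.78 and 0.889 CPM in DTR libraries, against 3.68, 2.65 and 1.5 CPM in WT libraries, and overlapped. Chemokine genes (median -0.01, 10 of 20 below 0) and TNF and NF-kB target genes (median -0.14, 13 of 20 below 0; Ier3 -0.56 ± 0.33) shared Cxcl10 as their lowest member.

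The remaining lists had medians within 0.25 of 0 except where stated. Lists below 0 were fibre stress and repair (-0.25, 15 of 19 below 0; Csrp3 -0.67 ± 0.30, Gadd45a -0.65 ± 0.34), heat shock and chaperone (-0.14, 14 of 15; Hspe1 -0.35 ± 0.19, Hspa1a -1.20 ± 0.66) and ribosomal protein (-0.10, 24 of 26; Rpl18 -0.31 ± 0.17, Rpl7a -0.26 ± 0.16). The unfolded protein and integrated stress list had a median of -0.14 (Vldlr 0.69 ± 0.33, Ppp1r15a 0.35 ± 0.20), and pericyte and smooth muscle genes one of -0.11 (Cspg4 -0.45 ± 0.29, Abcc9 0.37 ± 0.28). The p53 and cell cycle inhibitor list had a median of -0.08, although the p53 target Phlda3 was at 45.8, 41.7 and 59.1 CPM in DTR libraries, against 23.2, 15.9 and 34.9 CPM in WT libraries; the inhibitor Cdkn1c was at -0.76 ± 0.36. In the oxidative and metal stress list (median -0.08), the metallothionein gene Mt2 was at -0.55 ± 0.20 and the glutathione enzyme gene Gclc at -0.98 ± 0.42, both without overlap. Mitochondrially encoded genes (-0.07; mt-Nd3 -1.07 ± 0.57, mt-Atp6 0.67 ± 0.37), ribosome biogenesis and Myc genes (-0.07; Srm 0.53 ± 0.24, Nop14 0.27 ± 0.19), cholesterol synthesis genes (-0.01; Nsdhl 0.59 ± 0.36), immediate early genes (-0.0018; Ier2 0.85 ± 0.43) and matrix remodelling genes (0.0011; Ccn2 1.29 ± 0.54) were near 0. Above 0 lay hypoxia (0.09; Pdk1 0.42 ± 0.23), fatty acid oxidation and lipid (0.10; Plin5 1.35 ± 0.37, Acsl1 0.58 ± 0.23), tissue repair growth factor (0.15; Tgfb1 -0.95 ± 0.56, Gas6 0.29 ± 0.19), tenocyte (0.23; Fmod 1.15 ± 0.54, Scx -0.67 ± 0.55) and Schwann cell genes (0.71 over 9 genes; Mag 1.27 ± 0.76). The 3 tested olfactory receptor genes had a median of 0.36, with Olfr78 at 0.54 ± 0.64 and Olfr558 at 0.36 ± 0.61. Of the mitochondrially encoded genes named above, mt-Nd3 stood at 5.3 CPM or less and mt-Atp6 at 3.9 CPM or less in every day 3 library. The mitochondrially encoded list summed to 13010 CPM or more.

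**Figure D5:**
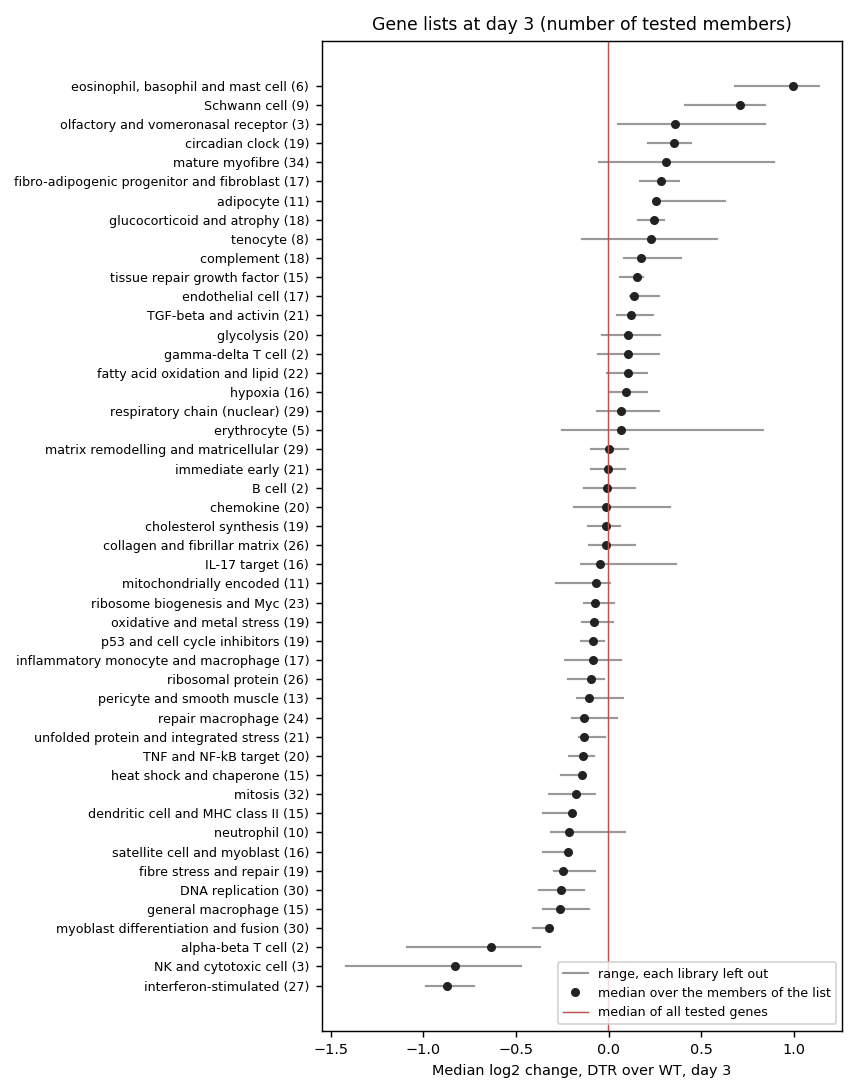
Median log2 change of DTR over WT muscle at day 3 for each of the 48 gene lists (black points, tested members in brackets), with the range when each library is left out in turn (grey bars) and the median of all genes (red line). The interferon-stimulated list lies at -0.87, and its bar, -0.99 to -0.73, does not reach the red line.

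Whether the day 3 change differed from that of another day was tested for all 13648 genes. No gene differed from day 1 by edgeR's quasi-likelihood test; 589 had an unadjusted p under 0.05, and the smallest p belonged to Cd209f, Gm31814, Ltbp4, Tbx15 and Cpe. From day 7, 178 genes differed (1.3%), 143 with the higher change at day 3 (1.05%) and 35 with the lower (0.256%). The change at day 7 was the larger in size for 162 of the 178, and the changes at the 2 days had opposite signs for 153. Prrc2a, an RNA-associated protein gene, averaged 49.4 CPM in DTR and 47.6 CPM in WT muscle at day 3, against a log2 change of -2.65 at day 7. Rab5b, Zbtb38, Lypla2 and Map3k1 followed the same course, with day 3 changes between -0.24 and 0.25. From day 14, 40 genes differed (0.293%), 29 with the higher change at day 3 and 11 with the lower (0.0806%). Cpe, a peptide-processing carboxypeptidase gene, averaged 38.5 CPM in DTR and 23.7 CPM in WT muscle at day 3 but 71.0 CPM in DTR and 179 CPM in WT muscle at day 14. Tnfrsf12a, the TWEAK receptor gene raised in damaged fibres, averaged 191 CPM in DTR and 201 CPM in WT muscle at day 3 but 84.1 CPM in DTR and 18.5 CPM in WT muscle at day 14. Rnf10, Mt2 and Cactin completed the 5 smallest p values of that comparison. Leaving out DTR replicate 2 of day 7 cut the day 7 count to 9, and leaving out WT replicate 3 of day 7 cut it to 71. Without day 3 DTR replicate 2 or day 3 WT replicate 1 it was 83, and without day 3 DTR replicate 1 it was 112. Olfactory and vomeronasal receptor genes took 146.3 and 92.1 CPM in day 7 DTR libraries, against 266.7, 543.2 and 1382.8 CPM in WT libraries. The day 7 DTR libraries held 9548065 and 10974862 counts, against 7031474, 9309783 and 7573306 in WT libraries. Neither measure overlapped between genotypes at day 7, and the part of either in these calls was not tested. The day 14 count was 4 without DTR replicate 3 of day 14 and 115 without DTR replicate 1 of day 14. It was 52 without day 3 WT replicate 3, and between 7 and 26 when any of the other libraries of the 2 days was left out.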

How the data were processed

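RNA from whole tibialis anterior (2 ng of polyA RNA per library, per the labels' protocols) was sequenced, and the authors deposited 1 table of raw whole-number counts per gene for all 39 libraries. Per the submitters' processing notes, the tools were STAR 2.7.3a and featureCounts of Subread 2.0.0 with mm10; no source used here names the library kit, strand setting or annotation, so reads of overlapping and antisense genes cannot be told apart. Only the values under the 13648-gene rule were tested.

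The 23 time course libraries were fitted together with 1 mean per genotype and day in edgeR 4.0.16 (R 4.3.3; TMM, robust quasi-likelihood, 15 residual degrees of freedom), since the shared fit gives more error degrees of freedom than 6 libraries. Contrasts were DTR over WT at day 3, and that change minus the change at another day, adjusted by Benjamini-Hochberg over all tested genes. Day 7 has 2 DTR libraries. CPM are relative to TMM-scaled library size, with exceptions. Those of the gamma-delta receptor sum, of the stray olfactory and vomeronasal reads and of Vgamma6 cells are relative to all counts. The procedure was tested on simulated counts. DESeq2 1.42.0, other filters and scalings, a replicate block, the 6 libraries alone, an offset for GC content and length (added after seeing the data) and leaving out each library were alternatives. Replicate numbers do not pair the samples: deviations of same-numbered libraries correlated at -0.036, 0.060 and -0.018. No 2 day 3 libraries of 1 genotype agreed within sampling noise.

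The members and the 48 gene lists were chosen with earlier results of these data known. Of 858 listed symbols, 856 were found. Named were the 2 genes of each list with the smallest p (none being called), a fixed set of gamma-delta receptor, IL-17, myogenic and collagen genes, and the 5 smallest p of each difference between days; others are marked. Promoters are from RefSeq (GRCm38.p6) and positions from GENCODE on mm10. Values of some single genes are not reported here.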

Additional observations from a re-analysis of the deposited data

Results flagged for a closer look

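The genotype change at day 3 differed from the change at another day by the test of that difference for 178 genes at day 7 and 40 genes at day 14 (edgeR's quasi-likelihood test, adjusted p under 0.05). All differences below are the day 3 log2 change minus the other day's. At day 7 the genotypes did not overlap in stray olfactory reads or library totals, and the part of either was not tested. Groups of 3 libraries are too small for a test of single outlying libraries.

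Among interferon-stimulated genes, the difference from day 7 was -2.06 for Rsad2, -2.17 for Usp18, -3.07 for Cxcl10, -1.92 for Stat2, -1.54 for Bst2, -1.93 for Xaf1, -2.20 for Oas1a and -1.17 for Ifitm3. All 8 had a log2 change below 0 at day 3 and above 0 at day 7. None of the 8 calls was kept without day 7 DTR replicate 2.

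The 5 genes with the smallest p against day 7 differed by 2.71 (Prrc2a), 2.10 (Rab5b), 2.23 (Zbtb38), 1.96 (Lypla2) and 2.49 (Map3k1). Prrc2a, Rab5b and Map3k1 kept the call in all 11 fits that left out 1 library, while Zbtb38 and Lypla2 lost it without day 7 DTR replicate 2.

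Against day 14 the differences were 1.92 for Rnf10, 2.04 for Cpe, -2.26 for Tnfrsf12a, -2.29 for Mt2 and 3.05 for Cactin. The call was kept in all 12 fits that left out 1 library for Rnf10, Cpe, Tnfrsf12a and Mt2, and Cactin lost it without day 14 DTR replicate 3.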

How the results depend on the processing

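The count of genes called at day 3, 0 in the main fit, was 1 with library size alone (Tbx15), 34 with no filter on low counts, 2 by DESeq2, and 0 to 12 when each library was left out, 12 arising without WT replicate 3. No interferon-stimulated gene was among them. Against day 1 the count of 0 became 17 with no filter. Against day 7 the 178 genes became 341 with no filter, 377 by DESeq2 and 9 to 232 with a library left out. Against day 14 the 40 genes became 23 with library size alone, 128 with no filter, 120 by DESeq2 and 4 to 115 with a library left out. With the replicate number as a block, which the labels do not show to pair samples, the day 3 count stayed 0, the day 7 count was 72 and the day 14 count 62. Of the interferon-stimulated genes, 8 differed from day 7 in the main fit, 16 with no filter, 12 by DESeq2, 4 with the offset for GC content and length, and 3 with library size alone or the block; the cause was not tested. The summed gamma-delta receptor difference stayed between -4.08 and -3.49 CPM with a library left out.

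Some uncalled genes crossed 0 when a library was left out, with log2 changes of -0.13 to 0.39 for Cd79b, -0.10 to 1.80 for Alas2, -0.29 to 0.93 for Hba-a2, -0.75 to 0.18 for Cox7a1, -0.19 to 1.07 for Olfr78, -0.49 to 0.18 for Pax7, -0.16 to 0.14 for Col1a1, -0.015 to 0.096 for Prrc2a, -0.072 to 0.15 for Zbtb38 and -0.23 to 0.050 for Tnfrsf12a. Prrc2a was also at -0.036 with the GC and length offset. Medians of the interferon-stimulated and differentiation lists stayed below 0 under each alternative run. The depth of 3579023 to 6599665 counts leaves receptor genes of rare lymphocytes at single counts per library.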
